A study of Mus musculus with 22 samples.

Results

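The cyclins of the D, E, A and B families were followed through 3 stages of mouse preimplantation development, with and without knockdown (KD) of the histone variant H2A.Z. The 10 genes, Ccnd1, Ccnd2, Ccnd3, Ccne1, Ccne2, Ccna1, Ccna2, Ccnb1, Ccnb2 and Ccnb3, were found by gene symbol in a table of FPKM (fragments, scaled to the length of the transcript and to all mapped fragments of the library) that lists 55335 genes, and each symbol had 1 entry. Cyclins are the regulatory subunits of cyclin-dependent kinases (CDKs), and each family acts in a different part of the cell cycle. D cyclins answer to growth signals in G1, E cyclins act at the start of DNA replication, A cyclins act in S phase and G2, and B cyclins drive entry into mitosis. The first division of the mouse embryo runs largely on transcripts and proteins stored in the oocyte, and later divisions need transcription of the embryonic genome.

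The strain of all samples is given as B6D2F1, and the females were aged 8 weeks. KD embryos had received, as zygotes at 20 to 22 h after injection of the mother with hCG (human chorionic gonadotropin), about 10 pL of an siRNA mix against H2A.Z at 20 µM. Control and KD embryos were collected at 43 to 44 h after hCG as 2-cell embryos (4 control and 3 KD libraries), at 78 h as morulae (4 and 3) and at 94 h as blastocysts (4 and 4). Every library was made by Smart-seq2 from 15 pooled embryos. What the control embryos of these libraries had received is not stated, and neither is whether libraries of a group came from separate collections, so the p-values given here measure the spread between libraries only. The libraries are bulk samples, in which fewer cells of a type and less RNA per cell cannot be told apart. H2afz, the gene of H2A.Z.1, had a mean of 1141 FPKM in control and 222 in KD 2-cell embryos (112 to 415 over the 3 KD libraries, highest in replicate 1), 1357 and 28.3 in morulae, and 2272 and 60.6 in blastocysts. H2afv, the gene of H2A.Z.2, had 109.6 and 88.9, 101 and 11.3, and 57.5 and 15.3 FPKM.

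Of the 10 cyclins, 6 had a mean of at least 5 FPKM in 1 or more groups, called expressed below, and the other 4 did not exceed 2.30 FPKM in any library. In KD 2-cell embryos the means of Ccnb3, one of the 4, and Ccnd3, one of the 6, were 1.88 and 1.83 FPKM. Ccnb1 had the highest mean FPKM of the 10 in each of the 6 groups, from 279 in control blastocysts to 679 in KD morulae. In control 2-cell embryos the order by mean FPKM was Ccnb1 (599.7 ± 68.2, SD, n = 4), Ccna2 (205 ± 35.4), Ccne1 (198 ± 62.3), Ccne2 (36.2 ± 4.68), Ccnb2 (32.5 ± 1.14) and Ccnd3 (3.72 ± 1.68). The libraries of Ccna2 and Ccne1 overlapped, as did those of Ccne2 and Ccnb2. In control morulae the order was Ccnb1 (541 ± 70.8), Ccne1 (201 ± 13.1), Ccna2 (161 ± 21.3), Ccnb2 (91.0 ± 11.6), Ccnd3 (24.2 ± 5.76) and Ccne2 (17.8 ± 3.59). Here Ccne1 and Ccna2 overlapped, and so did Ccnd3 and Ccne2. In control blastocysts it was Ccnb1 (279 ± 19.6), Ccnb2 (206 ± 37.1), Ccna2 (63.2 ± 11.4), Ccne1 (31.3 ± 12.4), Ccnd3 (18.7 ± 12.5) and Ccne2 (11.3 ± 1.90). Ccnb2 had moved from the fifth place to the second, next to Ccnb1, whose libraries it overlapped, while Ccne1, Ccnd3 and Ccne2 formed an overlapping chain at the low end. In KD blastocysts the order of means was the same, but Ccnb1 and Ccnb2 no longer overlapped, Ccnb2, Ccna2 and Ccne1 overlapped in turn, and Ccne1, Ccnd3 and Ccne2 were apart from each other. For Ccnb1, Ccnb2, Ccna2, Ccne1 and Ccne2 the KD blastocyst mean lay between those of control morulae and control blastocysts. For Ccnd3 it lay above both. Whether KD embryos were behind in stage was not tested. Among genes with a mean of at least 1 FPKM, Ccnb1 ranked 64 of 11859 in control 2-cell embryos, 170 of 10742 in control morulae and 383 of 11048 in control blastocysts.

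**Figure D1:**
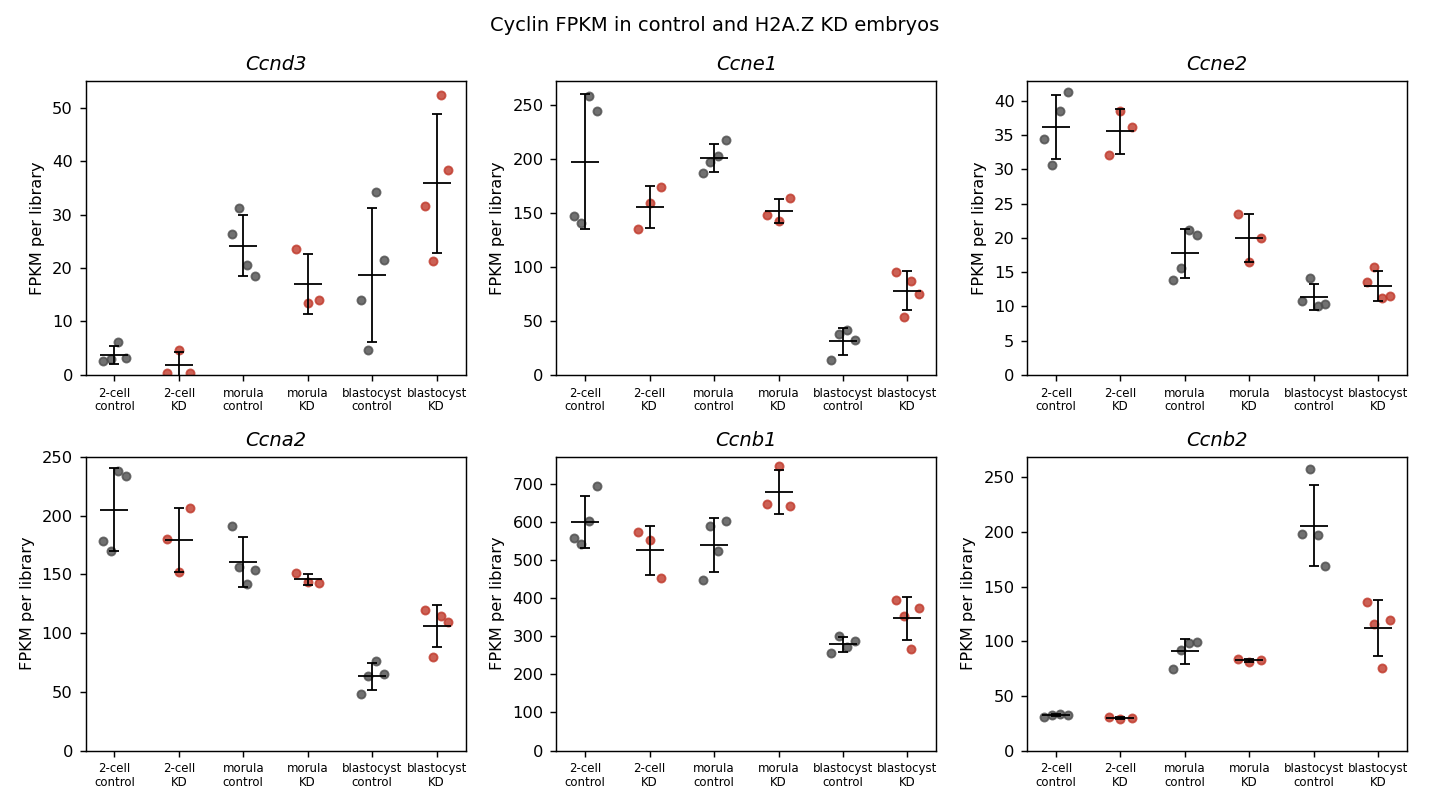
FPKM of the 6 expressed cyclins in each library. Each dot is 1 library of 15 pooled embryos, grey for control and red for H2A.Z KD. Horizontal lines are group means and bars are 1 SD (n = 4 controls at each stage, and n = 3, 3 and 4 with KD). The vertical scale differs between genes.

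Among the D cyclins, which bind CDK4 and CDK6, Ccnd3 was the expressed member. At the 2-cell stage, Ccnd3 stood at 2.65, 2.92, 6.22 and 3.07 FPKM in control libraries and 0.404, 4.67 and 0.430 in KD libraries. In morulae, its FPKM were 26.3, 31.3, 20.6 and 18.6 in controls and 23.5, 13.5 and 14.0 after KD. In blastocysts, they were 14.1, 4.75, 34.3 and 21.5 in controls and 31.6, 21.3, 52.4 and 38.3 after KD. Ccnd3 was low in every 2-cell library and high in every morula library, with no overlap. KD replicate 2 of the 2-cell stage lay inside the control range and the other KD libraries below 0.5 FPKM, and in morulae and blastocysts the control and KD libraries overlapped, with a wide spread in blastocysts. Tests were made with limma on log2(scaled FPKM + 1), over all genes that passed a filter on low FPKM, and a gene passed at an adjusted p under 0.05. On this scale a change of a gene with few FPKM is understated. Values are relative to the other genes of a library, so amounts per embryo are not known from them. FPKM of single libraries, and overlaps between them, are given before this scaling. From 2-cell embryos to morulae, Ccnd3 rose by 2.28 in controls (SE 0.43, adjusted p = 4.55e-05) and by 2.90 in KD embryos (SE 0.49, adjusted p = 1.51e-05). Its log2 fold change from morulae to blastocysts was -0.59 (SE 0.43, adjusted p = 0.292) in controls, where it was -0.073 without blastocyst control replicate 4 and -0.92 without replicate 5, and 0.84 (SE 0.46, adjusted p = 0.185) in KD embryos, the latter past the threshold in a fit of these 2 groups alone (0.82, adjusted p = 0.0239). Between KD and control, the log2 fold change of Ccnd3 was -0.97 (SE 0.44, adjusted p = 0.828) at the 2-cell stage, -0.38 (SE 0.21, adjusted p = 0.258) in morulae and 1.12 (SE 0.43, adjusted p = 0.0606) in blastocysts, none past the threshold. At the 2-cell stage 4 control libraries and 1 KD library had 1 FPKM or more. Ccnd3 thus entered that test through the control group, and its value there is not taken as support for a fall. With 1 library left out, the 2-cell value ran from -1.61 to -0.64 and the morula value from -0.59 to -0.25. In blastocysts it passed without control replicate 5 (1.46, adjusted p = 0.0158) or without KD replicate 4 (1.32, adjusted p = 0.0441), was 0.60 without control replicate 4, and had adjusted p between 0.0158 and 0.151 over the fits that left out 1 library. With the replicate number as a block the blastocyst value passed too (1.12, adjusted p = 0.00378), though nothing stated shows that these numbers pair the libraries. The difference between the KD effects in blastocysts and morulae was 1.43 (SE 0.63, adjusted p = 0.173), and 0.92 without blastocyst control replicate 4.

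Ccnd1 and Ccnd2 had few or almost no fragments. Ccnd2 lay between 0.00115 and 0.194 FPKM over the 22 libraries and was below the filter in every comparison. Ccnd1 lay between 0.364 and 1.88 FPKM, with 10 of 22 libraries at 1 or more. In morulae, Ccnd1 stood at 1.05, 0.675, 0.880 and 0.640 FPKM in controls and 1.67, 1.19 and 1.88 after KD. Every KD morula library was above every control morula library. At this stage 3 KD libraries and 1 control library had 1 FPKM or more, so that Ccnd1 entered this test through the KD group. Its log2 fold change, 0.57 (SE 0.16, adjusted p = 0.0393) in limma, past the threshold, came with that selection and is not taken as support for a rise. The call rested on every library but 1: it held without control replicate 1 (adjusted p = 0.0401) and was lost without control replicate 2, 7 or 8 or KD replicate 1, 2 or 6 (adjusted p from 0.0545 to 0.111). With FPKM as deposited it was lost too (0.51, adjusted p = 0.0633), and so it was with no filter on low FPKM (adjusted p = 0.106). The 2-cell value was -0.048 (SE 0.27, adjusted p = 0.984), from -0.24 to 0.21 with 1 library left out, and in blastocysts Ccnd1 was below the filter, at 0.364, 0.595, 0.564 and 0.697 FPKM in controls and 0.738, 0.607, 1.09 and 1.15 after KD, ranges that overlapped. The KD effect on Ccnd1 was not shown to differ between morulae and 2-cell embryos (0.60, SE 0.26, adjusted p = 0.281, and 0.34 without 2-cell KD replicate 1). From morulae to blastocysts, Ccnd1 fell by 0.52 in KD embryos (SE 0.19, adjusted p = 0.0365), a call lost without morula KD replicate 1 or 6 or blastocyst KD replicate 1 or 4 (adjusted p from 0.0713 to 0.152), with a pseudocount of 0.1, with no filter or with FPKM as deposited (0.0596, 0.0926 and 0.102), and in controls its value was -0.20 (SE 0.17, adjusted p = 0.385). From 2-cell embryos to morulae it was -0.28 (SE 0.17, adjusted p = 0.136) in controls, past the threshold without 2-cell control replicate 1 (-0.43, adjusted p = 0.0301) and -0.14 without replicate 5 (adjusted p = 0.447), and 0.32 (SE 0.20, adjusted p = 0.149) in KD embryos, past it without 2-cell KD replicate 2 (0.51, adjusted p = 0.0302) and 0.050 without replicate 1 (adjusted p = 0.823).

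The E cyclins activate CDK2 at the start of S phase, and Ccne1 was the more abundant of the pair in every group. Ccne1 had 147, 141, 259 and 244 FPKM in the control libraries of 2-cell embryos and 135, 159 and 174 in the KD libraries. Control morulae had 187, 198, 203 and 218 FPKM, and KD morulae 148, 143 and 164. Control blastocysts had 13.7, 37.4, 42.0 and 32.0 FPKM, and KD blastocysts 95.5, 54.1, 87.4 and 75.1. Control replicates 4 and 5 of the 2-cell stage were high, and control replicates 1 and 2 lay with the KD libraries. In morulae all KD libraries were below all controls in FPKM before scaling, and in blastocysts all KD libraries were above all controls, of which replicate 1 was the lowest. From 2-cell embryos to morulae, the log2 fold change of Ccne1 was -0.11 (SE 0.23, adjusted p = 0.669) in controls (-0.24 to -0.011 with 1 library left out) and -0.18 (SE 0.26, adjusted p = 0.542) in KD embryos (-0.27 to -0.092), neither of which passed. From morulae to blastocysts it fell by 2.74 in controls (SE 0.23, adjusted p = 1.81e-09) and by 1.14 in KD embryos (SE 0.24, adjusted p = 0.00104).

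In blastocysts, the mean of Ccne1 was 31.3 ± 12.4 FPKM in controls and 78.0 ± 18.0 with KD (SD, n = 4 and 4). The log2 fold change was 1.38 (SE 0.27, adjusted p = 0.00222) in limma. Ccne1 was the cyclin with an absolute log2 fold change above 1 that passed. Left out in turn, no single library ended this call, with log2 fold changes from 1.08, without control replicate 1, to 1.52 and adjusted p of at most 0.00806. The replicate numbers of blastocyst libraries are 1 and 4 to 6. The KD and control libraries numbered 1 differed by 2.66 on the log2 scale (n = 1 and 1), and replicates 4 to 6 by 0.95 on average (n = 3 and 3). This split was made after the values were seen, and nothing stated shows that the numbers pair libraries. In morulae the log2 fold change was -0.28 (SE 0.15, adjusted p = 0.242), which did not pass. With FPKM as deposited, which moved the median of all genes in morulae by -0.10, it was -0.41 and passed (adjusted p = 0.0318, against 0.0318 to 0.509 over all settings other than left-out libraries). The 2-cell value was -0.23 (SE 0.22, adjusted p = 0.871), from -0.35 to -0.11 with 1 library left out, and within replicates 1 and 2 it was 0.018 (n = 2 and 2), with control means of 144 FPKM in replicates 1 and 2 and 251 in replicates 4 and 5. The KD effect on Ccne1 differed between blastocysts and morulae by 1.59 (SE 0.33, adjusted p = 0.00365), and this call held without any 1 of the 15 libraries of these stages (adjusted p of at most 0.0128). Between morulae and 2-cell embryos the difference was -0.071 (SE 0.35, adjusted p = 0.956), from -0.17 to 0.042 with 1 library left out.

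Ccne2, the second E cyclin, followed another course. The FPKM of Ccne2 in 2-cell embryos were 34.4, 30.7, 38.6 and 41.3 in controls and 32.0, 38.5 and 36.2 with KD. For morulae they were 13.9, 15.6, 21.1 and 20.5 in controls and 23.5, 16.5 and 19.9 with KD. For blastocysts they were 10.8, 14.1, 10.0 and 10.3 in controls and 13.5, 15.8, 11.2 and 11.5 with KD. It was highest in 2-cell embryos, where no library overlapped a morula library, and control and KD libraries overlapped at each stage. Ccne2 fell from 2-cell embryos to morulae by 1.18 in controls (adjusted p = 3.64e-06) and by 0.95 in KD embryos (adjusted p = 0.000304). From morulae to blastocysts it fell by 0.58 in controls (adjusted p = 0.0116) and by 0.74 in KD embryos (adjusted p = 0.00635). The drop in controls did not pass without morula control replicate 7 (-0.48, adjusted p = 0.0504) or 8 (-0.48, adjusted p = 0.0509). It did not pass with the replicate number as a block either (-0.27, adjusted p = 0.387). Between KD and control its log2 fold change in limma was 0.044 (SE 0.15, adjusted p = 0.971), 0.29 (SE 0.21, adjusted p = 0.391) and 0.19 (SE 0.20, adjusted p = 0.475) in the order of the stages, and with 1 library left out it ran from -0.017 to 0.11, 0.12 to 0.41 and 0.077 to 0.31. The ratio of Ccne1 to Ccne2 FPKM within a library had a mean of 5.37 in control and 4.39 in KD 2-cell embryos, 11.6 and 7.72 in morulae, and 2.81 and 6.22 in blastocysts. In morulae the KD libraries (6.31 to 8.61) lay below the controls (9.61 to 13.5), and in blastocysts the KD libraries (3.42 to 7.81) overlapped the controls (1.27 to 4.19).

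Of the A cyclins, Ccna2, which works with CDK2 in S phase and CDK1 before mitosis, was expressed at every stage. At the 2-cell stage, Ccna2 stood at 179, 170.2, 238 and 233 FPKM in control libraries and 180.0, 152 and 206 in KD libraries. In morulae, its FPKM were 191, 157, 142 and 154 in controls and 151, 144 and 143 after KD. In blastocysts, they were 48.2, 63.5, 75.9 and 65.2 in controls and 119.9, 80.0, 114 and 109.6 after KD. The highest values were in 2-cell controls 4 and 5, and the lowest in control blastocysts. In morulae the groups overlapped, and in blastocysts every KD library was above every control. From 2-cell embryos to morulae, Ccna2 fell by 0.53 in controls (SE 0.14, adjusted p = 0.00143) and by 0.43 in KD embryos (SE 0.16, adjusted p = 0.0181). In a fit of these 2 groups alone the value in controls was -0.35 and still passed. Both calls were lost with FPKM as deposited (-0.34 with adjusted p = 0.0555, and -0.29 with adjusted p = 0.164), that in KD embryos also without 2-cell KD replicate 4 (-0.32, adjusted p = 0.0989) and in a fit of the KD libraries of these stages alone (-0.21, adjusted p = 0.250). It fell by 1.33 in controls from morulae to blastocysts (SE 0.14, adjusted p = 5.89e-08) and by 0.64 in KD embryos (SE 0.15, adjusted p = 0.00235).

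In blastocysts, the mean of Ccna2 was 63.2 ± 11.4 FPKM in controls and 106 ± 17.8 with KD (SD, n = 4 and 4). The log2 fold change was 0.75 (SE 0.17, adjusted p = 0.00454) in limma. This held without any 1 library (0.65 to 0.85, adjusted p of at most 0.0160) and under each other setting tried. The KD and control libraries numbered 1 differed by 1.23 and replicates 4 to 6 by 0.58 on average. The 2-cell and morula values were -0.12 (SE 0.18, adjusted p = 0.924) and -0.0079 (SE 0.12, adjusted p = 0.971), from -0.25 to 0.032 and from -0.052 to 0.015 with 1 library left out. The KD effect differed between blastocysts and morulae by 0.69 (SE 0.20, adjusted p = 0.0351). That call was a narrow one: it held without morula control replicate 7, blastocyst control replicate 5 or blastocyst KD replicate 4 or 5, and was lost without any 1 of the other 11 libraries (0.60 to 0.70, adjusted p from 0.0538 to 0.0762). Ccna1, the A cyclin known from male germ cells, was listed at 0 in 19 of 22 libraries and reached 0.0396 FPKM, in 1 control 2-cell library.

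B cyclins bind CDK1 and drive mitosis. Ccnb1 had 559, 543, 603 and 695 FPKM in the control libraries of 2-cell embryos and 573, 552 and 452 in the KD libraries. Control morulae had 448, 589.7, 524 and 602 FPKM, and KD morulae 648, 747 and 643. Control blastocysts had 255, 300.4, 271 and 288 FPKM, and KD blastocysts 396, 354, 267 and 374. Ccnb1 was in the same range in 2-cell embryos and control morulae, highest in KD morulae, where every library was above every control, and lowest in control blastocysts. In 2-cell embryos and blastocysts the control and KD libraries overlapped, in blastocysts through KD replicate 5. Ccnb1 fell by 0.93 in controls from morulae to blastocysts (SE 0.16, adjusted p = 6.77e-05) and by 1.14 in KD embryos (SE 0.18, adjusted p = 4.02e-05). From 2-cell embryos to morulae the value was -0.34 (SE 0.16, adjusted p = 0.0630) in controls, past the threshold without morula control replicate 8 (-0.42, adjusted p = 0.0331) but -0.20 without replicate 1 (adjusted p = 0.267), -0.15 with FPKM as deposited (adjusted p = 0.292) and -0.16 in a fit of these groups alone (adjusted p = 0.420). In KD embryos the value was 0.23 (SE 0.19, adjusted p = 0.284), 0.13 without 2-cell KD replicate 4 (adjusted p = 0.600), and past the threshold with FPKM as deposited (0.37, adjusted p = 0.0309) and in a fit of these 2 groups alone (0.45, adjusted p = 0.0190). Between KD and control, the log2 fold change of Ccnb1 in limma was -0.12 (SE 0.15, adjusted p = 0.900) at the 2-cell stage, 0.46 (SE 0.18, adjusted p = 0.111) in morulae and 0.31 (SE 0.19, adjusted p = 0.211) in blastocysts, none of which passed. Without KD replicate 5 the blastocyst value passed (0.49, adjusted p = 0.0191, with 0.0191 to 0.421 over the fits that left out 1 library). The KD effect on Ccnb1 was not shown to differ between morulae and 2-cell embryos (0.57, SE 0.25, adjusted p = 0.288) or between blastocysts and morulae (-0.21, SE 0.24, adjusted p = 0.709, from -0.31 to -0.041 with 1 library left out).

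Ccnb2 took another course, and rose from morulae to blastocysts in controls, where Ccnb1 fell. The FPKM of Ccnb2 in 2-cell embryos were 31.1, 32.1, 33.8 and 32.8 in controls and 30.8, 28.7 and 30.1 with KD. For morulae they were 74.2, 92.3, 98.4 and 99.0 in controls and 83.7, 80.9 and 82.8 with KD. For blastocysts they were 198, 257, 197 and 169 in controls and 136, 116, 75.8 and 119.5 with KD. Its FPKM was lowest at the 2-cell stage, where the KD libraries lay just below the controls before scaling. It was higher in morulae, and highest in control blastocysts, where every control was above every KD library. The KD blastocysts overlapped both morula groups. Ccnb2 rose from 2-cell embryos to morulae by 1.27 in controls (SE 0.19, adjusted p = 2.75e-06) and by 1.29 in KD embryos (SE 0.22, adjusted p = 1.59e-05). From morulae to blastocysts it rose by 1.18 in controls (SE 0.19, adjusted p = 2.45e-05), while in KD embryos its value was 0.24 (SE 0.21, adjusted p = 0.435), which passed without blastocyst KD replicate 5 (0.47, adjusted p = 0.0495) and was 0.11 without replicate 1 (adjusted p = 0.797).

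In blastocysts, the mean of Ccnb2 was 206 ± 37.1 FPKM in controls and 112 ± 25.6 with KD (SD, n = 4 and 4). The log2 fold change was -0.88 (SE 0.23, adjusted p = 0.0107) in limma. This held without any 1 library (-1.01 to -0.65, adjusted p of at most 0.0341), but not with no filter on low FPKM, where the value was the same and the adjusted p 0.0644. The KD and control libraries numbered 1 differed by -0.61 and replicates 4 to 6 by -0.97 on average. The 2-cell and morula values were -0.050 (SE 0.14, adjusted p = 0.964) and -0.0072 (SE 0.18, adjusted p = 0.982), from -0.080 to 0.014 and from -0.16 to 0.069 with 1 library left out. The KD effect differed between blastocysts and morulae by -0.94 (SE 0.28, adjusted p = 0.0386). This call held without morula control replicate 7 or 8, blastocyst control replicate 5 or 6, or blastocyst KD replicate 1 or 4, and was lost without any 1 of the other 9 libraries (-0.97 to -0.71, adjusted p from 0.0507 to 0.0855), with no filter on low FPKM (adjusted p = 0.0942) and in a fit of these stages alone (-0.91, adjusted p = 0.0660). The ratio of Ccnb1 to Ccnb2 FPKM within a library had a mean of 18.5 in control and 17.6 in KD 2-cell embryos, 5.96 and 8.24 in morulae, and 1.38 and 3.15 in blastocysts. Control and KD libraries did not overlap in this ratio in morulae (5.33 to 6.39 and 7.73 to 9.23) or in blastocysts (1.17 to 1.70 and 2.91 to 3.53).

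Ccnb3, a B cyclin known from meiosis, was low, and listed at 0 in 2 libraries. At the 2-cell stage, Ccnb3 stood at 1.75, 1.05, 2.14 and 1.40 FPKM in control libraries and 1.13, 2.30 and 2.20 in KD libraries. In morulae, its FPKM were 0.236, 0.188, 0.136 and 0.131 in controls and 0.288, 0.118 and 0.182 after KD. In blastocysts, they were 0.00674, 0, 0 and 0.0119 in controls and 0.0555, 0.0432, 0.110 and 0.0468 after KD. The 2-cell libraries were all above the later ones, and control and KD overlapped at the 2-cell and morula stages. The KD blastocysts were above the control blastocysts, all far below the filter. Of the 22 libraries, 7 had at least 1 FPKM, all of 2-cell embryos, so that Ccnb3 entered the fit over all stages through 2-cell embryos alone. Its change from 2-cell embryos to morulae, -1.17 (SE 0.12, adjusted p = 1.06e-08) in controls and -1.34 (SE 0.14, adjusted p = 1.52e-08) in KD embryos in limma, both past the threshold, came with that selection. From morulae to blastocysts Ccnb3 had -0.20 (adjusted p = 0.202) in controls and -0.18 (adjusted p = 0.358) in KD embryos in limma. With a pseudocount of 0.1 both passed (-1.27, adjusted p = 0.000178, and -0.90, adjusted p = 0.0126), at FPKM far below the filter. The KD effect at the 2-cell stage was 0.19 (SE 0.22, adjusted p = 0.896), from 0.080 to 0.38 with 1 library left out.

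**Figure D2:**
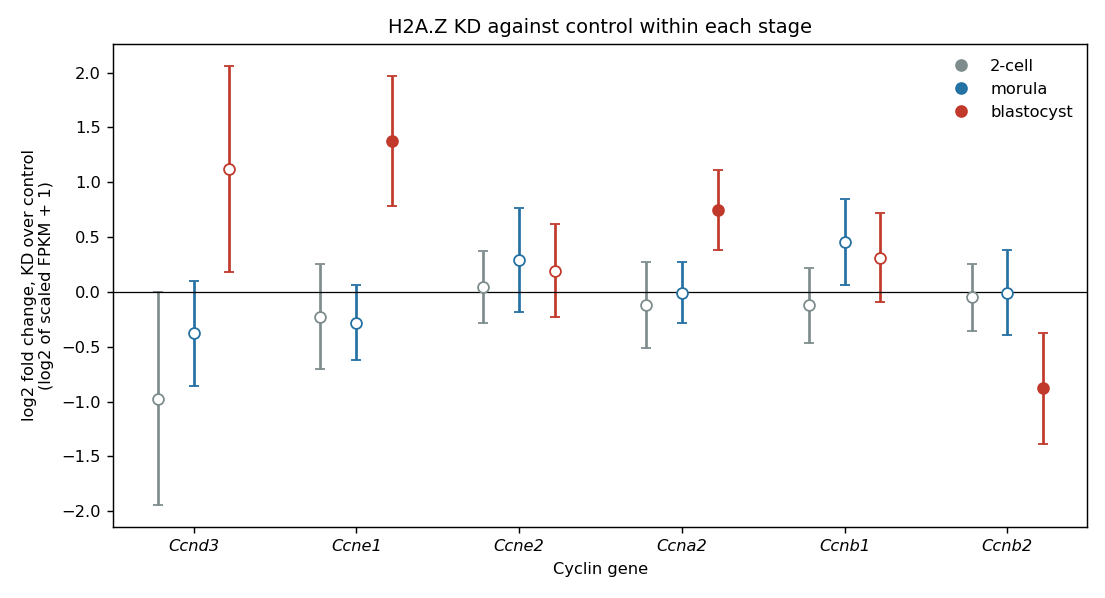
Effect of H2A.Z KD on the 6 expressed cyclins at each stage. Points are log2 fold changes of KD over control from limma on log2(scaled FPKM + 1), bars are their 95% confidence intervals, and filled points have an adjusted p under 0.05 over all genes tested at that stage. With FPKM as deposited, Ccne1 in morulae also passed. With the replicate number as a block, Ccnb1 in morulae and Ccnd3 in blastocysts passed, and with no filter on low FPKM Ccnb2 in blastocysts did not. Calls that changed on leaving out 1 library are given in the text.

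Set side by side, the KD comparisons gave these counts for the cyclins in limma. At the 2-cell stage 8 of the 10 were tested, 0 passed and 1, Ccnd3, tested through its control libraries, had an unadjusted p under 0.05. Of all 12160 genes tested at that stage, 0% passed as higher and 0% as lower, with 701 at an unadjusted p under 0.05. H2afz, the gene knocked down, did not pass there either (adjusted p = 0.543 in limma, the smallest of that stage). A count of 0 at this stage is therefore not read as the absence of an effect. In morulae 7 cyclins were tested, and 1 passed as higher (Ccnd1, tested through its KD libraries) and 0 as lower, beside 4.23% and 9.04% of 10989 genes. The count of all genes passing in morulae, 1458, came to 910 and 855 without control replicates 7 and 8, and to 579 and 551 without KD replicates 1 and 2. In blastocysts 6 cyclins were tested, of which 2 passed as higher and 1 as lower, beside 16.7% and 19.8% of 11828 genes. With an absolute log2 fold change above 1 as well, the count was 1, higher, beside 6.06% of all genes. The median log2 fold change of the cyclins tested was -0.085, -0.0072 and 0.53 in the order of the stages. That of all genes tested was 0.0035, 0.015 and 0.0047, and the scaling holds it near 0. The number of cyclins is small, and nothing about them as a group is read from these counts.

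Over the stages, 8 cyclins were tested in 1 limma fit of all 22 libraries and 15697 genes. In controls 12609 of these genes passed between 2-cell embryos and morulae, while the scaling takes the median gene as unchanged. A rise or fall of a cyclin over the stages is therefore relative to the other genes, and not a change in amount per embryo. In controls from 2-cell embryos to morulae 2 passed as higher (Ccnd3, Ccnb2) and 3 as lower (Ccne2, Ccna2, Ccnb3), beside 39.0% and 41.3% of all genes, and in KD embryos the counts were 2 and 3, of the same genes, beside 36.6% and 40.5%. In both counts Ccnb3 was past the filter through 2-cell libraries alone. With FPKM as deposited, the median of all genes in the control comparison moved by 0.11. Between morulae and blastocysts, controls had 1 higher (Ccnb2) and 4 lower (Ccne1, Ccne2, Ccna2, Ccnb1), beside 24.5% and 20.6%. KD embryos had 0 higher, with 5 cyclins in all at an unadjusted p under 0.05, and 5 lower (Ccnd1, Ccne1, Ccne2, Ccna2, Ccnb1), beside 16.3% and 14.0%. With a pseudocount of 0.1, Ccnb3 passed as lower in controls and in KD embryos. The median log2 fold change of the cyclins from morulae to blastocysts was -0.58 in controls and -0.58 in KD embryos. That of all genes was 0 in both, and the scaling holds it near 0. When the KD effects in morulae and 2-cell embryos were compared, 0 cyclins passed in limma and 2 had an unadjusted p under 0.05, beside 0.357% of all genes higher and 0.994% lower (2282 genes at an unadjusted p under 0.05). Between blastocysts and morulae, 2 cyclins passed as higher (Ccne1, Ccna2) and 1 as lower (Ccnb2), beside 4.06% and 5.28%, a count between 1 and 3 over the fits that left out 1 library.

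Taken as shares of the summed FPKM of the 10 cyclins, the B cyclins held most of the total in every group. Their mean share was 59.2% in control and 59.8% in KD 2-cell embryos, 60.8% and 69.3% in morulae, and 79.6% and 66.1% in blastocysts. The KD libraries were all above the controls in morulae (67.8% to 72.3% against 55.5% to 63.0%) and all below them in blastocysts (56.3% to 73.2% against 74.2% to 83.9%). The E cyclins held 21.4% and 20.6% in 2-cell embryos, 21.2% and 15.7% in morulae, and 6.89% and 13.2% in blastocysts, with no overlap between control and KD in the last 2 stages. The A cyclins held 19.0% and 19.3%, 15.7% and 13.3%, and 10.3% and 15.3%, without overlap in blastocysts (8.92% to 12.0% against 12.5% to 18.8%) and with overlap at the other stages. The D cyclins held 0.445% and 0.309%, 2.43% and 1.71%, and 3.20% and 5.43%, and their control and KD libraries overlapped at each stage. A share does not depend on how libraries are scaled, and it says nothing of which family changed in amount.

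**Figure D3:**
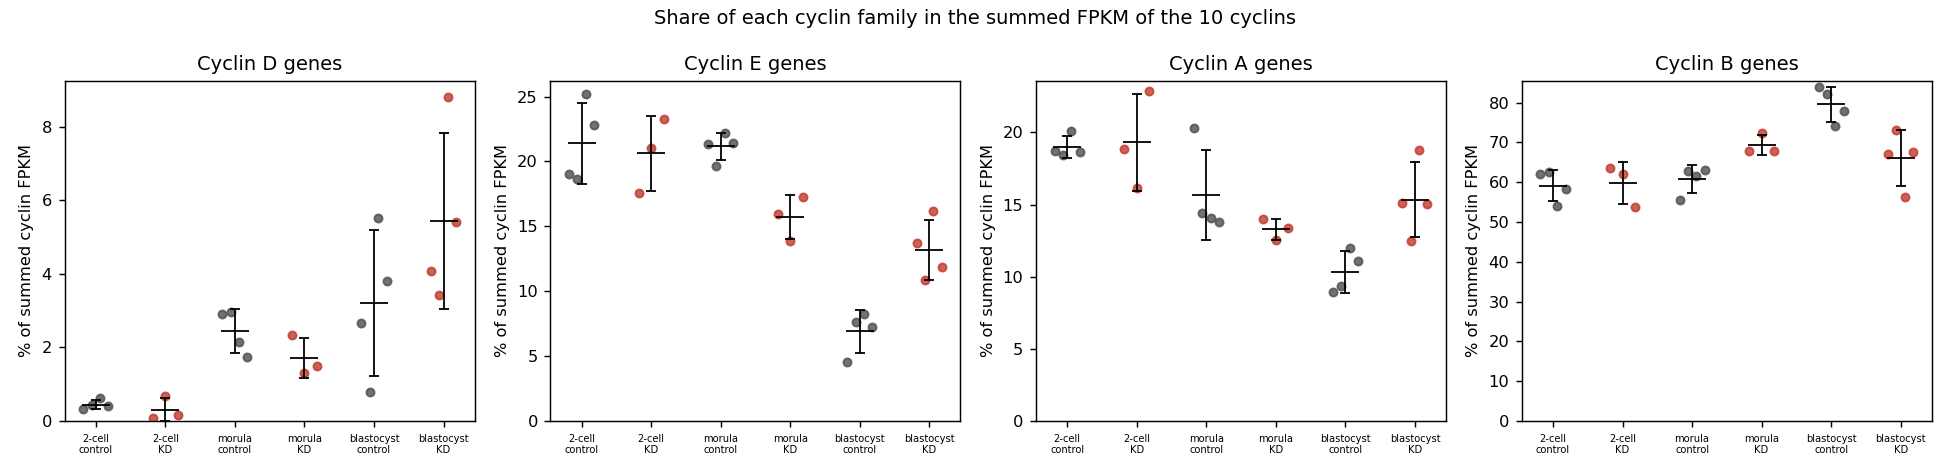
Share of each cyclin family in the summed FPKM of the 10 cyclins, in percent. Each dot is 1 library, grey for control and red for H2A.Z KD, lines are group means and bars are 1 SD (n = 4 controls at each stage, and n = 3, 3 and 4 with KD). The vertical scale differs between families.

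The patterns of the expressed cyclins over the 22 libraries were compared as Pearson r of log2(scaled FPKM + 1), given as a description: the points share stage, library and scaling. Ccna2 and Ccne1 were most alike (r = 0.945), followed by Ccna2 and Ccnb1 (0.848) and Ccnb1 and Ccne1 (0.839). Ccnb2 ran against them, with r = -0.891 to Ccna2, -0.830 to Ccne2, -0.778 to Ccne1 and -0.651 to Ccnb1. Ccnd3 and Ccne2 had r = -0.812, and Ccnd3 and Ccnb2 0.616. Among all genes past the filter, those most like Ccne1 were Rab20 (0.970), Rhebl1 (0.963) and Eif6 (0.963). Those most like Ccna2 were Gm15801 (0.972), Ankrd10 (0.970) and Lrrc42 (0.970), and those most like Ccnb2 were Acot2 (0.978), Dynlt1b (0.978) and Gm14393 (0.976). For Ccne2 they were Ncoa3 (0.978), Foxn2 (0.969) and Snupn (0.967), and for Ccnd3 Vps11 (0.927), Zfp180 (0.927) and Rps12-ps3 (0.916). For Ccnb1 they were Ccnb1-ps (0.971), a pseudogene with sequence of Ccnb1, Eif4e (0.963) and BC024063 (0.959).

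Some cyclins share sequence or position with other genes, which limits how well their FPKM can be assigned, since no use of strand is stated for the quantification. Ccnb1 (chr13:100778650-100786570, minus strand) shares stretches of 50 bases with 6 pseudogenes: Ccnb1-ps holds 18.9% of its stretches, Gm12856 13.4%, Gm8416 11.1%, Gm4870 5.28%, Gm7483 1.32% and Gm7067 0.0228%. Ccnb1-ps had means of 22.0 FPKM in control 2-cell embryos, 18.2 in control morulae and 8.19 in control blastocysts, far below Ccnb1 itself. Ccnd1 overlaps LTO1 on the opposite strand, which shares 21.6% of its stretches and had 8.15 to 26.6 FPKM, more than Ccnd1 in each library, with means of 16.2 in control and 15.8 in KD morulae, so the level of Ccnd1 is uncertain. Ccna2 (chr3:36564865-36572150, minus strand) overlaps Exosc9 (11.4% of stretches; means of 101 FPKM in control and 75.3 in KD blastocysts), Ccne2 overlaps Ints8 (14.4%; 11.6 and 5.57 FPKM), and Ccnd3 overlaps Bysl (3.31%; 5.25 and 12.9 FPKM). Ccnd3 shares stretches with 46 genes in all, among them Ccnd3-ps (1.52%) and Atp5l (0.509%; 384 and 186 FPKM), so its level is uncertain. The part of these genes in the values of Ccnd1, Ccna2, Ccne2 and Ccnd3 was not tested. Ccne1 (chr7:38097984-38107534, minus strand), Ccnb2 (chr9:70407692-70421547, minus strand) and Ccnb3 share no such stretch with any other annotated gene. No 2 cyclins shared a stretch, and the 10 genes lie on 8 chromosomes.

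Because Ccnb2 had a negative r to Ccnb1 and Ccne1 over the 22 libraries, the bases before the start sites of these genes are shown. They are from RefSeq promoters on GRCm38.p6, which were found for 6 of the 10 cyclins (Ccna1, Ccnb1, Ccnb2, Ccnb3, Ccnd3 and Ccne1). Motifs were searched on both strands in the 250 bases before the start site: TTTGAA, known as CHR, CCAAT, and the E2F words TTTCCCGC, TTTCGCGC, TTTGGCGC and TTTGCCGC. Of 32851 promoters in the table, 16.0% hold TTTGAA, 33.8% CCAAT and 1.86% an E2F word. Ccnb2 holds TTTGAA at 1 place, from base 167 to base 162 before the start site, and CCAAT at 3 places, from bases 87, 54 and 21. Ccnb1 holds CCAAT at 2 places, from bases 99 and 67. Ccne1 and Ccnb3 hold none of these words in this window, Ccna1 holds 1 CCAAT, and 1 of the 2 promoters of Ccnd3 holds 1 CCAAT. A match is a match of letters, and nothing about binding was measured here. The stretches below leave out bases inside the annotated gene, with matches in capitals, for Ccnb2 at chr9:70421555-70421804, Ccnb1 at chr13:100786571-100786736 and Ccne1 at chr7:38107535-38107740, all read on the minus strand.
Ccnb2: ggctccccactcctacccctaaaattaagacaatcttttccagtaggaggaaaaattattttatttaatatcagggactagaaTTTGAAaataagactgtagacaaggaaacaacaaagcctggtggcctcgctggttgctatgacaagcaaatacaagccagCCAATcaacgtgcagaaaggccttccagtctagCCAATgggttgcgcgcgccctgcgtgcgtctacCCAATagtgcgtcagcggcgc
Ccnb1: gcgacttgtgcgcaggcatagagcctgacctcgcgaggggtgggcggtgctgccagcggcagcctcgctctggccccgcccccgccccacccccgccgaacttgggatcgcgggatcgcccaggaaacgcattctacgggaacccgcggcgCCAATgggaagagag
Ccne1: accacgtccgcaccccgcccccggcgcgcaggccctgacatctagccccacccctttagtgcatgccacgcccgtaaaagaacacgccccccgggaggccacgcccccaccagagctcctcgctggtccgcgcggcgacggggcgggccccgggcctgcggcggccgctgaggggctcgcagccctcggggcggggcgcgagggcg
The first of the CCAAT matches of Ccnb1 is in its stretch, and the other lies in the bases left out.

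The kinases and activators that cyclins work with were followed as a list of 11 genes, of which 10 were tested at each stage and Cdk6 was below the filter, with group means from 0.393 to 0.852 FPKM. Among 2-cell embryos 0 passed in limma, and Cdc25c alone had an unadjusted p under 0.05, at -0.55. In morulae 1 passed, Cdc25c, a phosphatase that activates CDK1, at -0.66 (SE 0.18, adjusted p = 0.0338), beside 9.04% of all genes lower. In blastocysts 1 rose, Cdc25a (0.94, SE 0.27, adjusted p = 0.0178), and 3 fell: Cdc25c (-0.93, SE 0.24, adjusted p = 0.00881), Cdk2 (-0.80, SE 0.17, adjusted p = 0.00352) and Mnat1 (-0.73, SE 0.21, adjusted p = 0.0165), a subunit of the CDK-activating kinase, beside 16.7% and 19.8% of all genes. The morula call of Cdc25c was lost without any 1 library other than control replicate 1 (-0.72 to -0.55, adjusted p from 0.0520 to 0.134), and the blastocyst call of Cdc25a without control replicate 1 (0.76, adjusted p = 0.0514) or KD replicate 5 (0.75, adjusted p = 0.0523). With no filter, the calls of Cdc25c in morulae (0.0986) and of Cdc25a, Cdc25c and Mnat1 in blastocysts (0.0921, 0.0521 and 0.0647) were lost. Cdk2, the partner of Ccne1 and Ccna2, had 46.2 ± 11.4 FPKM in control and 25.7 ± 4.75 in KD blastocysts, and Cdk1, the partner of the B cyclins, 81.5 ± 12.0 and 67.3 ± 11.1 (log2 fold change -0.27, not passed). Cdk4 had 13.2, 125 and 127 FPKM in controls in the order of the stages, and its blastocyst value was 0.36. For Cdk7, Cks1b, Cks2 and Cdc25b it was -0.30, 0.0031, 0.19 and -0.11, none past the threshold. The median of the list was -0.23, 0.033 and -0.19 in the order of the stages.

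Of 10 genes that inhibit CDKs, 7 were tested at the 2-cell stage, with 0 passing in limma and none at an unadjusted p under 0.05, and 6 in each later stage. In morulae Cdkn1a (p21) rose by 1.71 and Cdkn2d (p19) fell by 1.09, beside 4.23% of all genes higher and 9.04% lower, and in blastocysts Cdkn1a rose by 1.96 and Cdkn2d fell by 1.46 (adjusted p of at most 0.00487 in limma), beside 16.7% and 19.8%. Cdkn2b (1.23) and Cdkn1c (0.84) were past the threshold as well in blastocysts, but had 1 FPKM or more in 0 control and 4 KD libraries, so they entered the test through the KD group and are not taken as support for a rise. Cdkn1c had 0.050 at the 2-cell stage and 0.45 in morulae, not passed, and Cdkn1b was below the filter, at 1.77 FPKM in control and 0.487 in KD blastocysts. The medians of the list were 0.050, 0.42 and 0.31.

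Of 19 genes of cyclin destruction and mitotic entry, 18 were tested, and at the 2-cell stage 0 passed in limma, with 2 at an unadjusted p under 0.05. In morulae Fbxo5, an inhibitor of the complex that marks A and B cyclins for destruction, was higher (0.54, SE 0.14, adjusted p = 0.0319) and Ccnb1ip1, which binds Ccnb1, lower (-0.59, SE 0.17, adjusted p = 0.0423), beside 4.23% and 9.04% of all genes. Both calls were narrow: that of Fbxo5 was lost without control replicate 7 or KD replicate 1, 2 or 6 (adjusted p from 0.0769 to 0.114), that of Ccnb1ip1 without any 1 library other than control replicate 1 (adjusted p from 0.0605 to 0.151), and both with no filter (0.0719 and 0.122). In blastocysts 4 were higher and 1 lower, beside 16.7% and 19.8% of all genes, with Ube2s (1.14, SE 0.26, adjusted p = 0.00447), Cdc20 (0.71, SE 0.20, adjusted p = 0.0146) and Cdc27 (0.48, SE 0.16, adjusted p = 0.0330), which act with that complex, among those higher, and the checkpoint kinase Bub1 (-0.49, SE 0.15, adjusted p = 0.0256) lower. Cdc20 was lost without control replicate 6 (0.63, adjusted p = 0.0500) and with no filter (0.0627), Bub1 without control replicate 4 or 5 or KD replicate 1 or 4 (adjusted p from 0.0512 to 0.0604), and Cdc27 without any 1 library other than control replicate 1 and KD replicate 4 (adjusted p from 0.0506 to 0.0952) and with FPKM as deposited (0.0523). The medians of the list were -0.16, -0.11 and 0.20.

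Markers of cell types are given for the same blastocyst libraries as the cyclins. The summed FPKM of 6 trophectoderm markers were 999, 1476, 1312 and 989 in control libraries and 586, 740, 789 and 605 in KD libraries, and the groups did not overlap. Krt18 was the most abundant, with 799 and 389.7 FPKM (-1.02, SE 0.18, adjusted p = 0.00126), Tead4 was higher (0.85, SE 0.22, adjusted p = 0.00989), the other 4 did not pass in limma, beside 16.7% of all genes higher and 19.8% lower, and none of the 6 was at 0 in all libraries of either group. The 5 markers of 2-cell embryos summed to 2.63, 3.36, 0.428 and 2.07 FPKM in control blastocysts and to 8.31, 19.1, 4.09 and 27.8 in KD blastocysts, against a mean of 455 in control 2-cell embryos. Tcstv3 was their most abundant gene in both groups. Tcstv3 (2.01) and Zfp352 (1.56) were past the threshold, but had 1 FPKM or more in 2 and 0 control and in 3 and 4 KD libraries, so the filter was not met by controls alone and neither is taken as support for a rise. The call of Tcstv3 was lost with no filter (adjusted p = 0.115), its control and KD libraries overlapped, and Zscan4c or Zscan4d was at 0 in some control libraries. The 5 markers of the inner cell mass, led by Nanog, summed to 110, 133, 219 and 132 FPKM in control and 136, 151, 275 and 194 in KD blastocysts, with 0 passing in limma and 1 at an unadjusted p under 0.05. In morulae Nanog fell by 2.23 (adjusted p = 0.00647), beside 9.04% of all genes lower, a call lost with no filter (0.0719), and the other 2 tested markers of that list did not pass. The part of these cell types in the values of the cyclins was not tested.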

How the data were processed

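FPKM of 22 RNA-seq libraries were read from 1 deposited table. The authors aligned reads to mm10 with STAR and computed FPKM per gene with StringTie 2.1.4; their own DEGs came from counts, which were not used here. Depth in reads is not known from FPKM, so errors are the spread between libraries. Groups and replicate numbers came from the sample titles, and each column matched a sample.

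R 4.3.3 with limma 3.58.1 was used for tests, and Python 3.11.15 with pandas 2.3.3, numpy 2.4.6 and matplotlib 3.10.9 for tables and figures. For each stage, library factors were medians of ratios to the geometric mean, a pseudocount of 1 was added to scaled FPKM, and genes with 1 FPKM or more in 3 or more libraries were tested (lmFit, eBayes with trend, Benjamini-Hochberg over all of them). Stage contrasts and differences of KD effects came from 1 fit of the 6 groups, scaled over all 22 libraries. Several comparisons share libraries, such as the control blastocysts, and their values are given side by side. The steps were tested on simulated data.

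All 10 cyclins are named. From each other list, those past the threshold in a KD comparison are named, at most 4 per comparison by size of the log2 fold change, with every gene of the CDK list, Cdkn1a, Cdkn1b, Cdkn1c, H2afz and H2afv, and for each cyclin with a group mean of at least 5 FPKM the 3 genes with the highest Pearson r. Members and lists were chosen with earlier results of these data known. Gene positions and shared stretches came from GENCODE, promoters from RefSeq. Alternatives were another pseudocount, no filter, FPKM as deposited, the replicate number as a block, fits of the compared groups alone and leaving out each library. Added after the calls had been seen were a term for low and high replicate numbers, factors centred on 1, and all alternatives of the named genes other than cyclins.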

Additional observations from a re-analysis of the deposited data

Results flagged for a closer look

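In 38 groups of 4 libraries (10 cyclins less those at 0 throughout), 2 libraries stood apart from the rest of their group, and chance alone would set apart about 1 group in 20. Both were control 2-cell libraries. Ccna1 in replicate 1, at 0.0396 FPKM, was the single value above 0 in its group, so its gap was 1 as a share of the range of that group. Ccnd3 in replicate 4, at 6.22 FPKM, had a gap of 0.882 of the range of its group.

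By a limma test of the difference itself, the KD effect passed as different between stages for 3 of the 8 cyclins tested and for other named genes. Between blastocysts and morulae the difference on the log2 scale was 1.59 for Ccne1, 0.69 for Ccna2 and -0.94 for Ccnb2. Of all 15697 genes, 4.06% passed as higher and 5.28% as lower. Leaving out 1 library ended the call of Ccna2 in 11 of 15 fits and that of Ccnb2 in 9 of 15. The replicate number as a block also ended the call of Ccna2. The call of Ccnb2 was also lost with no filter and in a fit of these stages alone. For the cyclins of other families and their regulators the difference was -1.29 for Ccnt2 (adjusted p = 0.00364), -0.98 for Cdkn2c (adjusted p = 0.0299) and -1.36 for E2f5 (adjusted p = 0.000433). Each was the 1 call of its list, in which 16, 8 and 12 genes were tested. The difference was 2.46 for Nanog and 1.02 for H2afv. Between morulae and 2-cell embryos it was 1.17 for Ccng1 (adjusted p = 0.0329), 1.61 for Cdkn1a (adjusted p = 0.0248), -2.89 for H2afz and -2.72 for H2afv. Ccng1 was 1 of 16 other cyclins tested and Cdkn1a 1 of 8 CDK inhibitors, beside 0.357% of all genes higher and 0.994% lower. The count of all genes passing here, 212, came to 95 without morula KD replicate 2 and to 6 with the replicate number as a block. For genes other than cyclins, alternatives of these differences are not given. Nanog had -2.14 between morulae and 2-cell embryos, but its FPKM were below 1 in all 2-cell libraries, so this value restates its fall in morulae. Causes were not tested.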

How the results depend on the processing

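Of 1027 alternative values for single cyclins, 963 kept their side of the threshold (34 of them, not past it, with the other sign), 48 fell short of it, 16 newly passed and 0 turned a call around. In blastocysts the calls of Ccne1 and Ccna2 held under each of them, and that of Ccnb2 under all but the fit with no filter. For other named genes, 818 of 874 kept their side (30 with the other sign), 54 fell short and 2 newly passed.

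With no filter on low FPKM, 0 cyclins (of 1) and 412 genes (of 1458) passed in morulae, with 169 DEGs (of 387). A pseudocount of 0.1 gave 789 DEGs in morulae and 2477 in blastocysts (of 1626). With FPKM as deposited, 328 genes (of 212) passed for the difference of KD effects between morulae and 2-cell embryos. The split of genes passing moved with it: in morulae from 465 higher and 993 lower (31.9% higher) to 281 and 1553 (15.3%), for KD blastocysts against KD morulae from 2564 and 2190 (53.9%) to 3180 and 1586 (66.7%), and for the difference between blastocysts and morulae from 638 and 829 (43.5%) to 860 and 708 (54.8%). The causes were not tested.

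Leaving out 1 library gave 0 to 3 genes passing and 0 to 3 DEGs at the 2-cell stage, and in morulae 0 to 1 cyclins and 551 to 1744 genes. It gave 1 to 2 DEGs among the cyclins in blastocysts, 95 to 275 genes for the difference of KD effects between morulae and 2-cell embryos, and 1 to 3 cyclins for that between blastocysts and morulae.

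Nothing stated shows that replicate numbers pair the libraries. Same-numbered control and KD libraries had mean correlations of 0.146, 0.138 and 0.0826 of their deviations in the order of the stages, against -0.0488, -0.0282 and -0.0288 for the other pairs, with a lowest same-numbered value of -0.111, and not every library correlated best with its own number. In morulae all pairs within the low or the high replicate numbers had positive values (0.0944 to 0.347) and all others negative ones (-0.278 to -0.0945). With the replicate number as a block, 2 cyclins were DEGs in blastocysts (of 1) and 6 genes passed for the difference between morulae and 2-cell embryos (of 212). In morulae Ccnb1 passed (0.60, adjusted p = 0.0402) and Ccnd1 did not (0.46, adjusted p = 0.241), and in blastocysts Ccnd3 passed (adjusted p = 0.00378). In controls from 2-cell embryos to morulae Ccnb1 passed (-0.58, adjusted p = 0.0221) and Ccna2 did not (-0.41, adjusted p = 0.0576), from morulae to blastocysts Ccne2 did not (-0.27, adjusted p = 0.387), and neither did Ccna2 for the difference of KD effects between blastocysts and morulae (0.77, adjusted p = 0.0524). The block changed the calls of these 7 of 69 cyclin results and no other call of a cyclin. Of other named genes, Mnat1 passed in morulae (-0.76, adjusted p = 0.0218), and Cdc25c, Ccnb1ip1 and Fbxo5 in morulae (adjusted p = 0.157, 0.133 and 0.0908) and Cdc27 in blastocysts (adjusted p = 0.0517) did not. A term for low and high replicate numbers, tried after the data were seen, changed 0 of 21 calls. What depth in reads would add could not be assessed from FPKM. Factors centred on 1, tried after the calls were seen, changed 0 of 158 results in call, or in a count by over 1.5 times.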

Other observations

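Cyclins of other families, 16 in all, act mostly in transcription or outside the cell cycle. All 16 were tested at the 2-cell stage, 0 passed in limma, and 1 had an unadjusted p under 0.05. In morulae 11 were tested and 1 passed, Ccng1 (log2 fold change 1.30), beside 4.23% of all genes higher, and in blastocysts 12 were tested, of which Ccng1 (1.12), Ccnt1 (0.72) and Ccnl1 (0.51) were higher and Ccnt2 (-0.93) lower, beside 16.7% and 19.8% of all genes. Ccnt1 and Ccnt2, which encode alternative partners of the same kinase, went from 5.35 to 9.32 and from 35.4 to 18.0 FPKM with KD. The call of Ccnl1 was lost without control replicate 1 or 4 or KD replicate 5 or 6 (adjusted p from 0.0539 to 0.0664) and with FPKM as deposited (0.0607).

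Of 16 genes of the RB and E2F families and their partners, 10 were tested in blastocysts. E2f4 (1.10) and E2f6 (0.87) were higher and E2f5 (-0.80) lower, at an adjusted p of at most 0.0379 in limma, beside 16.7% and 19.8% of all genes. E2f1 (0.53) was past the threshold too, but had 1 FPKM or more in 0 control and 4 KD libraries and entered the test through the KD group, so it is not taken as support for a rise. The call of E2f6 was lost without KD replicate 1, 5 or 6 (adjusted p from 0.0600 to 0.0875), with no filter (0.158) and with FPKM as deposited (0.0665), and that of E2f4 with no filter (0.0687). In morulae 0 of 9 and at the 2-cell stage 0 of 11 passed in limma, with 1 at an unadjusted p under 0.05 in each. Oocyte markers summed to a mean of 862 FPKM in control 2-cell embryos, led by Oosp1, and to 1.94 in control and 3.13 in KD blastocysts, led by Zp3. Primitive endoderm markers, led by Gata6, had mean sums of 13.1 and 20.1 FPKM in control and KD blastocysts. Cumulus cell markers had mean sums of 5.18 and 4.71, nearly all from Amhr2, with Has2, Ptx3, Fshr and Inhba at 0 in all libraries of both groups. None of these marker lists had a gene that passed in any of the KD comparisons.

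H2afz at the 2-cell stage did not pass over all genes (log2 fold change -2.53, adjusted p = 0.543, the smallest of that stage), and without KD replicate 1 it was -3.12 with an adjusted p of 0.000907.

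The groups held 3 or 4 libraries of 15 pooled embryos, so differences between single embryos were not seen. FPKM measure transcripts, and the amounts of cyclin proteins, which change within each cell cycle, were not measured. The position of the cells in the cell cycle was not measured either. Differences in the treatment of control and KD embryos other than the siRNA cannot be told apart from the KD. The authors report that fewer KD than control embryos formed blastocysts. A delay of KD embryos, or a selection of those collected as blastocysts, was not tested and cannot be told apart from other effects of the KD. Reads from opposite-strand neighbours and from pseudogenes could not be separated from those of the cyclins they overlap or resemble.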
